A study of Mus musculus with 16 samples.

Results

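The 32 genes described here mark the cells that build the blood vessels of the brain. They were chosen by name: 19 genes of endothelial cells, which line the vessel, and 13 genes of mural cells, which wrap it, of which 7 mark pericytes on capillaries and 6 mark the smooth muscle of arterioles. All 32 had a row in each of the authors' 3 tables, out of 39017 gene rows per table. The tissue was prelimbic cortex (PL) from mice of the inbred strain C57BL/6J. PL received a virus named AAV-IV-GFPL10, and 1 of 3 places that PL neurons project to received CAV-Cre, a virus that carries Cre recombinase. These places were the ventral tegmental area (VTA), the amygdala's basolateral part (BLA) and the nucleus accumbens (NAc). Ribosomes that carried the GFP-tagged protein L10 were pulled down with anti-GFP beads, a method called viral translating ribosome affinity purification (vTRAP). The immunoprecipitate (IP) is therefore meant to hold mRNA on polysomes of the PL neurons reached from that target, while the Input holds total RNA of the PL tissue. Each projection had its own IP and Input samples, so every sample came from tissue that had received both viruses. Of 16 samples, 3 IP and 3 Input belonged to PL-NAc, the same numbers to PL-BLA, and 2 IP and 2 Input to PL-VTA. Nothing in the labels says if replicates are different animals, so p-values cover the spread among these samples and no more, and that spread may be technical. No IP from untagged tissue was among the samples used here, and the sources used here give neither age nor sex of the mice.

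Endothelial cells of the brain are joined by tight junctions and form the blood-brain barrier, which nutrients and drugs cross through dedicated carriers and pumps. Their growth and survival are steered by receptors for vascular endothelial growth factor (VEGF) and for the angiopoietins. Pericytes are recruited by platelet-derived growth factor, released by the endothelium and sensed by the receptor Pdgfrb. Arteriolar smooth muscle carries a contractile apparatus of smooth muscle actin, myosin light chain and calponin, whose genes are classically driven by serum response factor through a DNA element called the CArG box. None of these cells is a neuron, and the comparison asks how the level of their marker transcripts on tagged polysomes compares with that in the tissue. It does not show from which cells a transcript in the IP came.

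Promoters of a few members are shown first, chosen after the search, as examples of elements known from smooth muscle and endothelial genes. RefSeq sequences (GRCm38.p6) were found for 25 of the 32 members, and the 250 bases before each start were searched on both strands. Capitals mark the CArG box, or a CArG box with 1 G or C among its 6 inner letters, in Myl9 and Acta2, and the letters AGGAAG, a form of the site bound by ETS factors, or their reverse complement, in Flt1 and Egfl7. Positions count back from the start, and stretches annotated as exon were left out or, for Acta2, shown only as 30 bases about each element. Myl9, smooth muscle myosin light chain (chr2:156775214-156775419, plus strand), was the member of highest level per kb. Acta2, smooth muscle actin, lies on the minus strand (chr19:34255388-34255417 and chr19:34255438-34255467). Flt1, a VEGF receptor (chr5:147726012-147726261, minus strand), stands for endothelial members that were lower in the IP, and Egfl7, a secreted factor of endothelial cells with 3 annotated starts on the plus strand (chr2:26580833-26581055, chr2:26583615-26583863 and chr2:26586386-26586629), is the member that was higher in every projection.
Myl9: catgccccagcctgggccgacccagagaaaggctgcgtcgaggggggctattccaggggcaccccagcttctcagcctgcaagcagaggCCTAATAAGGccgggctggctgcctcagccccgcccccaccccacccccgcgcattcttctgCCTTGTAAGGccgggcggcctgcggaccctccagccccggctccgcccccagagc
Acta2, upstream element: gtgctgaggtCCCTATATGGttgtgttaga
Acta2, downstream element: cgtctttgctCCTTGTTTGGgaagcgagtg
Flt1: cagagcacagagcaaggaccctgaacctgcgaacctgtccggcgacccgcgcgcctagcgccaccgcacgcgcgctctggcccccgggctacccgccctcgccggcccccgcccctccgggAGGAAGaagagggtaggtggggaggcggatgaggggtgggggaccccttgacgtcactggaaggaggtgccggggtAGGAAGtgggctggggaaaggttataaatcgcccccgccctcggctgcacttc
Egfl7, first start: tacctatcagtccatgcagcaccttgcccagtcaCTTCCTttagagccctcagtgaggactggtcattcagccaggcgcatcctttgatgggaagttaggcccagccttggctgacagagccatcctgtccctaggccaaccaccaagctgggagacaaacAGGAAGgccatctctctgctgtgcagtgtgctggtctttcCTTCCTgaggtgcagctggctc
Egfl7, middle start: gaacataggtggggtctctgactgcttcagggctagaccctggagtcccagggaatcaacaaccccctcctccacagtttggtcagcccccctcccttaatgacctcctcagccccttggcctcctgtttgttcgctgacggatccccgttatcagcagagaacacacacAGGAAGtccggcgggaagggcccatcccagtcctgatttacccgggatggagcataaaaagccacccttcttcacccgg
Egfl7, last start: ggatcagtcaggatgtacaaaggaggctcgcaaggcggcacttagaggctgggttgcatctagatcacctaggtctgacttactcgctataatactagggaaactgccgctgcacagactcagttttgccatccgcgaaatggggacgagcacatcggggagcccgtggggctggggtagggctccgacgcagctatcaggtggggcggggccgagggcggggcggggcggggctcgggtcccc

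In Myl9 the CArG box starts at position -161 and the near match at -99. Both Acta2 elements, at -84 and -34, are near matches. A full CArG box was found for 1 of 5 smooth muscle members with a promoter, for 0 of 5 pericyte members and for 0 of 15 endothelial members, against 1.62% of all 27025 genes in the promoter table. A near match was found for 2 of 5 smooth muscle members and for 5 of 15 endothelial members (Kdr, Slco1a4, Egfl7, Eng and Ocln), against 8.33% of all genes. It is therefore not limited to smooth muscle genes, and the one in the first promoter of Egfl7 is printed above without capitals. The letters AGGAAG or their complement occurred for 10 of 15 endothelial members and for 0 of 10 mural members, counted as 0 of 5 pericyte and 0 of 5 smooth muscle members, against 32.3% of all genes. Of the 3 starts of Egfl7, the first has 3 such matches, the middle one 1 and the last 0, and the gene counts used here do not separate transcripts by start. These matches describe the letters in these windows and were not tested.

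The values are the authors' comparison tables. Each gives, per gene, the mean normalized read count over the libraries of a projection, the log2 fold change of IP over Input with its standard error (SE) and an adjusted p-value. No values per library were used here. Because IP and Input had equal numbers of libraries, the mean and the fold change together give an implied count for each side. Mean normalized counts summed to between 15437849 and 16520414 per table. A gene was called when its adjusted p was under 0.05. The direction is not named in the file headers and was read as IP over Input from mitochondrial and glial transcripts, which were strongly negative, and not from the vascular genes. In bulk RNA such as this, fewer cells of a type and less RNA per cell cannot be told apart. The deposited log2 values appear to be shrunken toward 0, since the 50 genes with the fewest reads had log2 fold changes of at most 0.0302 in size in PL-NAc and the SE peaked at 0.438 there, so the size of change of members with few reads is understated. Implied counts and percents of Input were computed from these log2 values, so they understate the change too, most for members with few reads. The tables were normalized separately, so levels set side by side across projections are descriptions only.

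Vascular transcripts were mostly lower in the IP than in the Input, and a larger share of mural than of endothelial genes passed the test. In PL-NAc, 12 of 13 mural and 8 of 19 endothelial members were lower in the IP, with 0 mural and 1 endothelial member higher, where 21.7% of all 17998 genes tested were lower and 21.4% higher. In PL-BLA, 10 of 13 mural and 7 of 19 endothelial members were lower and 3 endothelial members were higher, where 20.2% of 17668 genes were lower and 20.8% higher. In PL-VTA, 3 of 11 mural and 3 of 17 endothelial members that could be tested were lower and 1 endothelial member was higher, where 10.5% of 15440 genes were lower and 11.0% higher. Tie1, Abcb1a, Abcc9 and Anpep had no adjusted p in PL-VTA because of their low means. A log2 fold change below 0, whatever the test, was found for 31, 29 and 31 of the 32 members in that order of projections, against 52.1%, 51.9% and 48.5% of genes tested. Lower calls of at least 2-fold numbered 17 of 32, 15 of 32 and 6 of 28, against 10.7%, 9.17% and 6.53%. Many members had few reads: of the 32, 20 (PL-NAc), 19 (PL-BLA) and 18 (PL-VTA) had a mean under 50. Among genes of comparable level, with a mean of 10 to 50, the shares lower were 27.8% (PL-NAc), 22.8% (PL-BLA) and 5.87% (PL-VTA). The shares higher were only 3.27%, 3.14% and 0.629%. With a mean of 50 to 500 the shares lower were 30.9%, 29.2% and 14.6%, and the shares higher 15.0%, 12.7% and 4.10%. Genes of these levels were thus called lower more often than higher. Shares below 0 and of 2-fold calls were not computed by level, so those given above are over genes of all levels.

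**Figure D1:**
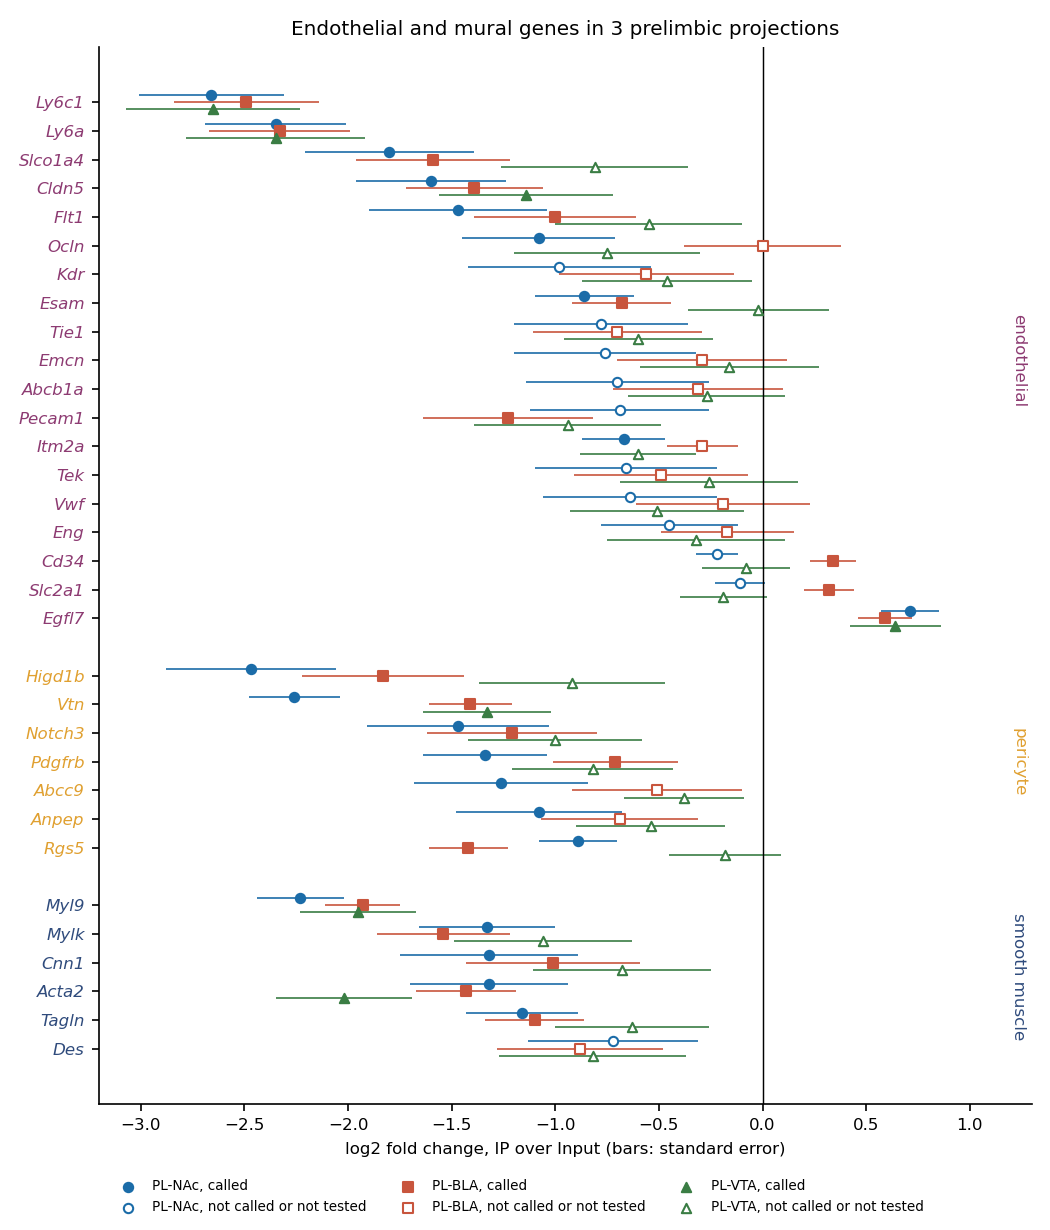
Log2 fold change of IP over Input (x axis, bars show the SE) for the 19 endothelial, 7 pericyte and 6 smooth muscle genes (rows) in PL-NAc (circles), PL-BLA (squares) and PL-VTA (triangles), with filled symbols for genes called at an adjusted p under 0.05. Mural genes lie left of 0 in every projection, while Egfl7 lies at 0.71, 0.59 and 0.64.

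Among endothelial members, the surface antigens Ly6c1 and Ly6a had the lowest log2 fold changes in each of the 3 projections. Both belong to the Ly6 family of small proteins anchored in the membrane by a lipid. Ly6c1 (chromosome 15, 75044018 to 75048830, GRCm38) stood at -2.66 (SE 0.35) in PL-NAc, -2.49 (SE 0.35) in PL-BLA and -2.65 (SE 0.42) in PL-VTA in the authors' deposited table, with adjusted p of 2.5e-13, 7.8e-12 and 9.2e-09. Its implied counts were 94.5 in Input and 15.0 in IP in PL-NAc and 93.6 and 16.7 in PL-BLA, and over the 3 projections the IP held between 15.8% and 17.8% of the Input level. Ly6a, on the same chromosome at 74994877 to 74998031, stood at -2.35 (SE 0.34), -2.33 (SE 0.34) and -2.35 (SE 0.43) in the same order in the authors' deposited table. These genes have close copies: 32.8% of the 50-base windows of Ly6c1 transcripts also occur in other genes, mainly Ly6c2, and 15.0% of those of Ly6a occur in Ly6c1, so how reads were split between copies is uncertain.

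Barrier carriers and pumps gave mixed results. The organic anion carrier Slco1a4 fell in PL-NAc at -1.80 (SE 0.41) and in PL-BLA at -1.59 (SE 0.37), and was -0.81 (SE 0.45) in PL-VTA without passing, in the authors' deposited table. The drug efflux pump gene Abcb1a had means of only 6.12 to 7.57 and was not called, at -0.70 (SE 0.44) in PL-NAc and -0.31 (SE 0.41) in PL-BLA, in the authors' deposited table. The glucose transporter gene Slc2a1, which astrocytes also express, was not called in PL-NAc at -0.11 (SE 0.12) or PL-VTA at -0.19 (SE 0.21), and rose in PL-BLA at 0.32 (SE 0.12, adjusted p 0.0201), in the authors' deposited table. Its implied counts were 571 in Input and 714 in IP in PL-BLA, against 513 and 476 in PL-NAc. With fold changes centred on the median of genes with a mean of at least 50, the Slc2a1 call in PL-BLA was lost (0.27, adjusted p 0.0614).

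Junction genes were lower where they were called. The tight junction claudin Cldn5 (chromosome 16, 18776847 to 18778262) fell in all 3 projections, at -1.60 (SE 0.36), -1.39 (SE 0.33) and -1.14 (SE 0.42), with adjusted p of 3.2e-05, 1.4e-04 and 0.0361, in the authors' deposited table. The PL-VTA call was lost when the adjustment ran over every gene with a p-value (adjusted p 0.0528). Its implied Input counts were 51.8, 62.3 and 72.6 and its implied IP counts 17.1, 23.8 and 33.0. The junction adhesion gene Esam fell in PL-NAc at -0.86 (SE 0.24) and in PL-BLA at -0.68 (SE 0.24), and was -0.02 (SE 0.34) in PL-VTA in the authors' deposited table. Ocln, occludin, fell in PL-NAc at -1.08 (SE 0.37) and was -0.00 (SE 0.38) in PL-BLA and -0.75 (SE 0.45) in PL-VTA, neither of which passed, in the authors' deposited table. Pecam1, an adhesion molecule of endothelial contacts, fell in PL-BLA at -1.23 (SE 0.41), while -0.69 (SE 0.43) in PL-NAc and -0.94 (SE 0.45) in PL-VTA did not pass, in the authors' deposited table. The intervals of Pecam1 ran from -1.54 to 0.15 in PL-NAc and from -1.82 to -0.06 in PL-VTA (95%), so a decrease of the PL-BLA size lies inside both.

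Of the 5 receptor genes 1 was called, as lower in PL-NAc and PL-BLA. Over all genes tested 21.7% and 20.2% were lower there, so this count is near the background. Flt1, VEGF receptor 1, fell in PL-NAc at -1.47 (SE 0.43) and in PL-BLA to 49.9% of Input (SE of the log2 value 0.39), and was -0.55 (SE 0.45) in PL-VTA, in the authors' deposited table. Kdr, VEGF receptor 2, had means of 9.71 to 10.9 and was -0.98 (SE 0.44), -0.56 (SE 0.42) and -0.46 (SE 0.41), with an adjusted p of 0.0574 in PL-NAc, in the authors' deposited table. After centring, Kdr passed in PL-NAc (-1.04, adjusted p 0.0423). The angiopoietin receptor Tek ran from -0.66 to -0.26 and its relative Tie1 from -0.78 to -0.60 over the 3 projections in the authors' deposited table. In the authors' deposited table Eng, endoglin, a co-receptor for transforming growth factor beta and BMP ligands, was -0.45 (SE 0.33), -0.17 (SE 0.32) and -0.32 (SE 0.43). The 5 receptors had negative estimates in each of the 3 projections, and Tie1 could not be tested in PL-VTA. The intervals of those that did not pass were wide, as for Tek in PL-NAc, from -1.51 to 0.20 (95%), and do not show that the genes were at Input level.

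Among the remaining endothelial members, the sialomucin gene Emcn and the clotting factor gene Vwf, both with means of 15.1 or less, were not called in any projection, with log2 fold changes from -0.76 to -0.16 in the authors' deposited table. The membrane protein gene Itm2a, which is not exclusive to endothelium, fell in PL-NAc at -0.67 (SE 0.20) and was -0.29 (SE 0.17) in PL-BLA and -0.60 (SE 0.28) in PL-VTA in the authors' deposited table. Cd34 (chromosome 1, 194938819 to 194961279), a sialomucin of endothelial and blood progenitor cells, had the most reads of all members, its means being 998 (PL-NAc), 1256 (PL-BLA) and 1198 (PL-VTA). It rose in PL-BLA at 0.34 (SE 0.11, adjusted p 0.00538), and was -0.22 (SE 0.10, adjusted p 0.0619) in PL-NAc and -0.08 (SE 0.21) in PL-VTA, in the authors' deposited table. The PL-NAc value is close to the threshold and passed as a decrease when only genes with a mean of at least 50 were tested (adjusted p 0.0489) or when fold changes were centred (adjusted p 0.0141).

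Egfl7 (chromosome 2, 26580014 to 26593120) was the only member called higher in every projection. It stood at 0.71 (SE 0.14) in PL-NAc, 0.59 (SE 0.13) in PL-BLA and 0.64 (SE 0.22) in PL-VTA, with adjusted p of 1.3e-06, 3.0e-05 and 0.0205, in the authors' deposited table. Implied counts rose from 309 in Input to 508 in IP in PL-NAc, from 361 to 545 in PL-BLA and from 367 to 572 in PL-VTA, so the IP held 164%, 151% and 156% of the Input level. Over all genes tested in the 3 tables, 8.76% were higher in each of them and 8.64% lower in each. In the GENCODE M21 annotation 4 other genes overlap exons of Egfl7, the largest overlap being 264 bases, or 7.37% of its exonic length, with Gm20532.

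All 7 pericyte genes fell in PL-NAc, 5 of 7 in PL-BLA and 1 of the 5 tested in PL-VTA. Over all genes tested 21.7%, 20.2% and 10.5% were lower, and PL-VTA had 2 libraries a side. No pericyte estimate was positive. Vtn, vitronectin (chromosome 11, 78499091 to 78502324), which brain pericytes secrete, fell in each projection, at -2.26 (SE 0.22), -1.41 (SE 0.20) and -1.33 (SE 0.31), with adjusted p of 1.8e-23, 6.7e-12 and 2.5e-04, in the authors' deposited table. Its implied counts went from 232 in Input to 48.3 in IP in PL-NAc, from 308 to 116 in PL-BLA and from 268 to 107 in PL-VTA. Rgs5 (chromosome 1, 169655501 to 169695813), a regulator of G protein signalling, fell in PL-NAc at -0.89 (SE 0.19) and PL-BLA at -1.42 (SE 0.19), and was -0.18 (SE 0.27) in PL-VTA, in the authors' deposited table. Its implied Input counts were 218, 277 and 281 and its implied IP counts 118, 104 and 248.

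Pdgfrb, the receptor through which the endothelium recruits pericytes, fell in PL-NAc at -1.34 (SE 0.30) and PL-BLA at -0.71 (SE 0.30), and was -0.82 (SE 0.39) in PL-VTA, in the authors' deposited table. Its PL-BLA call was lost when the adjustment ran over every gene with a p-value (adjusted p 0.0535). Higd1b, a mitochondrial membrane protein gene used as a pericyte marker, fell at -2.47 (SE 0.41) and -1.83 (SE 0.39) in PL-NAc and PL-BLA, and was -0.92 (SE 0.45) in PL-VTA, in the authors' deposited table. Notch3, the mural receptor for Notch ligands, fell in the same pair of projections, at -1.47 (SE 0.44) and -1.21 (SE 0.41), and stood at 50.1% of Input in PL-VTA without passing (adjusted p 0.0703), in the authors' deposited table. Abcc9, the regulatory subunit of a vascular potassium channel, and the aminopeptidase gene Anpep had means of 6.59 or less and fell in PL-NAc, at -1.26 (SE 0.42) and -1.08 (SE 0.40) by the authors' deposited table. They were -0.51 (SE 0.41) and -0.69 (SE 0.38) in PL-BLA in the authors' deposited table, which did not pass.

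Smooth muscle estimates were below 0 for all 6 genes in each projection. Of the 6, 5 were lower for both PL-NAc and PL-BLA, and 2 for PL-VTA, against 21.7%, 20.2% and 10.5% of all genes tested. Myl9 (chromosome 2, 156775420 to 156781658) fell at -2.23 (SE 0.21), -1.93 (SE 0.18) and -1.95 (SE 0.28), with adjusted p of 6.2e-25, 9.1e-25 and 1.5e-10, in the authors' deposited table. Its implied counts went from 341 in Input to 72.7 in IP, from 373 to 97.8 and from 410 to 106, so the IP held 21.3%, 26.2% and 25.9% of Input. Acta2 (chromosome 19, 34241090 to 34255590) fell at -1.32 (SE 0.38), -1.43 (SE 0.24) and -2.02 (SE 0.33), with adjusted p of 0.00174, 4.3e-08 and 3.7e-08, in the authors' deposited table. The implied Acta2 counts were 217, 243 and 274 in Input and 86.9, 90.3 and 67.7 in IP.

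Tagln, transgelin, an actin-binding protein, fell in PL-NAc at -1.16 (SE 0.27) and PL-BLA at -1.10 (SE 0.24), and was -0.63 (SE 0.37) in PL-VTA, in the authors' deposited table. An antisense gene, Gm48529, overlaps 62.4% of the exonic length of Tagln in GENCODE M21, and reads from the pair cannot be told apart without strand. Mylk, myosin light chain kinase, fell at -1.33 (SE 0.33) and -1.54 (SE 0.32) in PL-NAc and PL-BLA and was -1.06 (SE 0.43, adjusted p 0.0599) in PL-VTA in the authors' deposited table. Cnn1, calponin, fell at -1.32 (SE 0.43) and -1.01 (SE 0.42) and was -0.68 (SE 0.43) in PL-VTA in the authors' deposited table, and its PL-BLA call was lost when the adjustment ran over every gene with a p-value (adjusted p 0.0525). Des, desmin, the muscle intermediate filament, was the 1 mural gene called in no projection, at -0.72 (SE 0.41), -0.88 (SE 0.40) and -0.82 (SE 0.45) by the authors' deposited table. Centring brought Des past the threshold in PL-BLA (adjusted p 0.0447) and Mylk in PL-VTA (adjusted p 0.0445).

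Set against each other, the endothelial members had a less negative median than the mural members in each projection. The medians were -0.76 and -1.32 in PL-NAc, -0.49 and -1.21 in PL-BLA, and -0.51 and -0.82 in PL-VTA, beside -0.03, -0.02 and 0.02 over all genes tested. These medians correspond to 59.2%, 71.4% and 70.2% of the Input level for endothelial genes and 40.0%, 43.2% and 56.5% for mural genes. Pericyte and smooth muscle genes were alike in PL-NAc, at -1.34 and -1.32, and PL-BLA, at -1.21 and -1.27, and stood at -0.82 and -0.94 in PL-VTA. Part of the endothelial list is of very low level, with 13 of 19 members under a mean of 50 in PL-NAc against 7 of 13 mural members, and shrinkage acts most on such genes. Among members with a mean of at least 50 the gap between the medians was larger, 0.89 (PL-NAc), 1.43 (PL-BLA) and 0.68 (PL-VTA), against 0.56, 0.72 and 0.31 over all members. That subset keeps Slc2a1, Cd34 and Egfl7, which were called lower in no projection by the deposited adjusted p, and drops most other endothelial members. Its larger gap therefore does not show what shrinkage did. Without Slc2a1, Cd34 and Egfl7, chosen after their values were seen, the gaps were 0.50, 0.59 and 0.25. The gap is a description of these members and was not tested.

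The 3 endothelial members that did not fall in any projection and had many reads also make up most of the counts. Summed over all 19 endothelial members, the implied IP count came to 84.7% (PL-NAc), 109% (PL-BLA) and 89.7% (PL-VTA) of the Input count. Summed over the 13 mural members it was 34.4%, 37.2% and 46.4%. For the 29 members other than Slc2a1, Cd34 and Egfl7 it was 38.9%, 45.0% and 51.1%.

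Per kb of exon, Myl9 was the most abundant member in each table, with mean normalized counts per kb of 178 (PL-NAc), 202 (PL-BLA) and 222 (PL-VTA). Slc2a1 followed at 141, 183 and 170 per kb and Cd34 at 137, 172 and 164 per kb. Egfl7 and Itm2a came next, at 114 and 98.1 per kb in PL-NAc. The defining endothelial genes were far lower: Cldn5 stood at 24.3 per kb in PL-NAc, Pecam1 at 2.07, Kdr at 1.10 and Flt1 at 0.998. Neighbours in this order cannot be separated by spread, since no values per library were used.

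**Figure D2:**
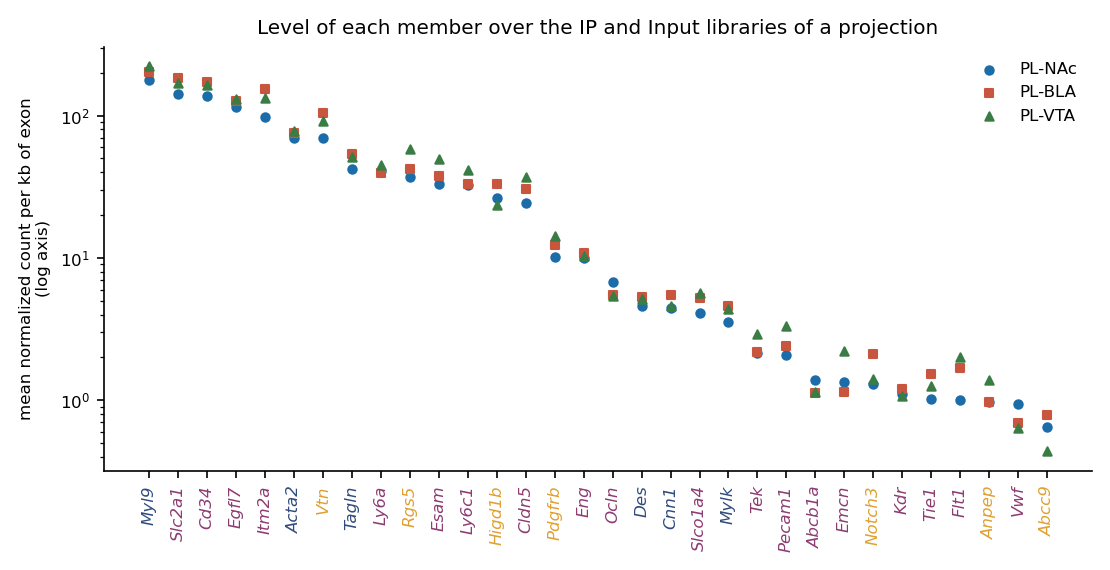
Mean normalized count per kb of exon (y axis, log scale) for the 32 members (x axis, in the order of their PL-NAc level, label colour by cell type) over the IP and Input libraries of PL-NAc (circles), PL-BLA (squares) and PL-VTA (triangles). Levels run from 178 for Myl9 to 0.646 for Abcc9 in PL-NAc, and Myl9, Slc2a1 and Cd34 lead in each projection.

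The projections were then compared for each member by the difference of their log2 fold changes, tested with a two-sided Wald z and adjusted over all genes tested in both tables. All 32 members could be tested for PL-NAc against PL-BLA, and 28 for each pair with PL-VTA. A difference passed for 1 member between PL-NAc and PL-BLA, for 0 between PL-NAc and PL-VTA, and for 1 between PL-BLA and PL-VTA, where 1.55%, 3.36% and 4.61% of all genes passed. An unadjusted p under 0.05 by the same test was reached by 4 of 32 members between PL-NAc and PL-BLA (Cd34, Vtn, Slc2a1 and Ocln), by 4 of 28 between PL-NAc and PL-VTA (Higd1b, Vtn, Rgs5 and Esam), and by 2 of 28 between PL-BLA and PL-VTA (Rgs5 and Slc2a1). Among all genes the shares were 8.75%, 10.7% and 11.2%, so these counts are near the background. Cd34 was lower in PL-NAc than in PL-BLA by 0.56 on the log2 scale (a difference of -0.56, SE 0.15, 95% interval -0.84 to -0.27, adjusted p 0.0132 by the Wald z). Rgs5 was lower in PL-BLA than in PL-VTA (a difference of -1.24, SE 0.33, 95% interval -1.88 to -0.60, adjusted p 0.00555 by the Wald z). For Rgs5 in PL-NAc against PL-VTA the difference was -0.71 (SE 0.33, adjusted p 0.363 by the Wald z).

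Other members showed differences that did not pass. Vtn differed by -0.85 (SE 0.29) between PL-NAc and PL-BLA, with an adjusted p of 0.154 by the Wald z, and Higd1b by -1.55 (SE 0.61) between PL-NAc and PL-VTA, with an adjusted p of 0.193. Slc2a1 differed by -0.43 (SE 0.17) between PL-NAc and PL-BLA, with an adjusted p of 0.298 by the Wald z. Egfl7 differed by 0.12, 0.07 and -0.05 over the 3 pairs, with 95% intervals from -0.25 to 0.49, from -0.44 to 0.58 and from -0.55 to 0.45. In 24 of 32 members the log2 fold change was lowest in PL-NAc, which was the case for 35.2% of all genes tested in the 3 tables. In 18 of 32 it was highest in PL-VTA, which was the case for 42.9% of all such genes. The members counted include Tie1, Abcb1a, Abcc9 and Anpep, which were not tested in PL-VTA. A lowest value in PL-NAc is not particular to vascular genes. Medians of the astrocyte, oligodendrocyte, microglial, red blood cell and perivascular fibroblast lists given below were also lowest there. The interneuron median was lowest in PL-BLA and the excitatory neuron median in PL-VTA.

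**Figure D3:**
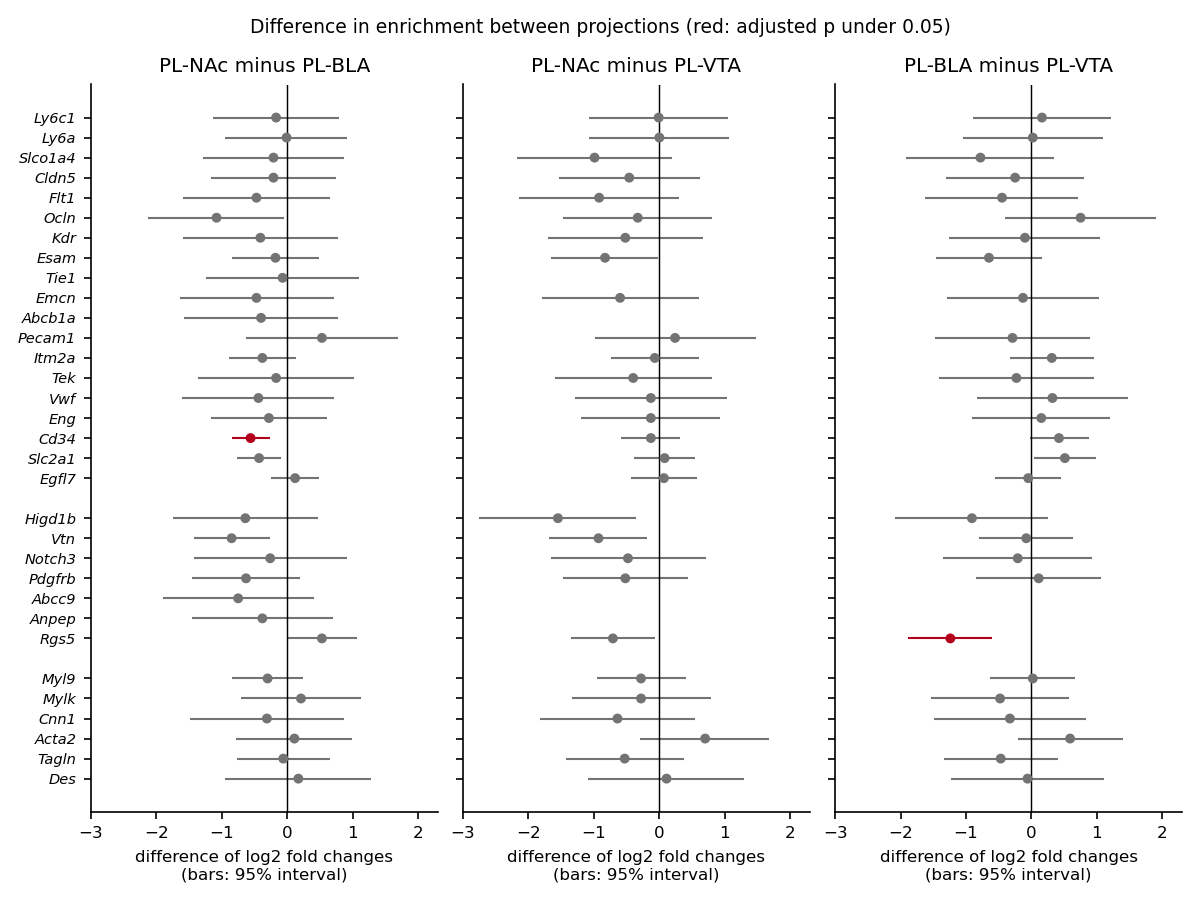
Difference of log2 fold changes between pairs of projections (x axis, bars show the 95% interval) for each member (rows), with red for an adjusted p under 0.05. Cd34 in PL-NAc minus PL-BLA (-0.56) and Rgs5 in PL-BLA minus PL-VTA (-1.24) are the 2 red points, and members without an adjusted p in PL-VTA have no point in the pairs with it.

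Further vascular genes outside the 32 were taken from lists, whose counts are read against the shares of all genes: 21.7% lower and 21.4% higher in PL-NAc, 20.2% and 20.8% in PL-BLA, and 10.5% and 11.0% in PL-VTA. Of 23 other endothelial genes with reads, 9 of 20 tested fell and 1 rose in PL-NAc, 6 of 21 fell and 2 rose in PL-BLA, and 4 of 16 fell and 2 rose in PL-VTA. Mfsd2a, the lipid carrier of the barrier, fell in each projection at -1.98 (SE 0.22), -1.34 (SE 0.18) and -1.21 (SE 0.29) by the authors' deposited table. Plvap (chromosome 8, 71497765 to 71511752), which encodes a protein of the diaphragms of leaky vessels, rose in each, at 0.80 (SE 0.14), 0.81 (SE 0.14) and 0.72 (SE 0.23) by the authors' deposited table. Like Egfl7, it therefore went against the list it belongs to, and no other annotated gene overlaps its exons. In the authors' deposited table the efflux pump gene Abcg2 rose in PL-BLA at 0.75 (SE 0.20) and the lactate carrier gene Slc16a1 in PL-VTA at 0.67 (SE 0.23).

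Of 20 other mural genes, 11 of 20 tested fell in PL-NAc, 10 of 20 fell and 1 rose in PL-BLA, and 2 of 17 fell in PL-VTA, a share near that of all genes there. Heyl, a transcription factor downstream of Notch3, fell furthest of them at -3.08 (SE 0.31), -2.60 (SE 0.30) and -2.42 (SE 0.41), and the tropomyosin gene Tpm2 fell at -2.27 (SE 0.24), -1.73 (SE 0.21) and -1.13 (SE 0.32) by the authors' deposited table. Cspg4, the NG2 proteoglycan of pericytes and oligodendrocyte precursors, rose in PL-BLA at 1.02 (SE 0.25) and was 0.46 (SE 0.26) and 0.72 (SE 0.39) in PL-NAc and PL-VTA in the authors' deposited table. Myh11, smooth muscle myosin heavy chain, was singled out after its values were seen: it was 0.09 (SE 0.36), -0.00 (SE 0.36) and 0.26 (SE 0.42), not called, in the authors' deposited table, with means of 37.2 to 49.0.

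Of the signalling lists of the vessel wall, some held calls in both directions. Shares of all genes lower were 21.7% (PL-NAc), 20.2% (PL-BLA) and 10.5% (PL-VTA), and shares higher 21.4%, 20.8% and 11.0%. Several lower counts were near these shares. Those were the VEGF list in PL-NAc and PL-BLA, the angiopoietin list in PL-NAc and the Notch list in PL-BLA. The Wnt list in PL-VTA and the contraction list in each projection were near them too. Among 8 VEGF pathway genes, 2 fell and 2 rose in PL-NAc, 2 fell and 1 rose in PL-BLA, and of 7 tested in PL-VTA 0 fell and 1 rose. The ligand Vegfa fell at -1.14 (SE 0.13) and -0.92 (SE 0.13) in PL-NAc and PL-BLA and was -0.45 (SE 0.22) in PL-VTA in the authors' deposited table. Vegfd, a ligand better known from lymphatic vessels, was 2.87 (SE 0.23), 2.89 (SE 0.22) and 0.37 (SE 0.43) by the authors' deposited table, and differed between PL-NAc and PL-VTA by 2.50 (SE 0.49, adjusted p 3.6e-05 by the Wald z). The VEGF and semaphorin co-receptor Nrp1 rose in PL-NAc at 0.44 (SE 0.14) and in PL-VTA at 1.02 (SE 0.22) in the authors' deposited table. Angptl4 was the 1 gene called of 4 angiopoietin-related genes, and in the authors' deposited table it fell in each projection, at -1.39 (SE 0.38), -0.96 (SE 0.35) and -1.25 (SE 0.45).

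The ligand Pdgfb rose in all 3 projections, at 0.70 (SE 0.11), 0.86 (SE 0.13) and 0.58 (SE 0.22), while Pdgfra, which marks fibroblasts and oligodendrocyte precursors, fell at -1.67 (SE 0.26), -1.08 (SE 0.24) and -1.12 (SE 0.37) by the authors' deposited table. In the Wnt pathway that maintains the barrier, the neuronal and glial ligand Wnt7b rose at 1.43 (SE 0.09), 1.60 (SE 0.09) and 0.61 (SE 0.17), and the ligand Ndp fell at -1.79 (SE 0.24), -1.37 (SE 0.22) and -1.43 (SE 0.35) by the authors' deposited table. Counted over 11 genes of that list, 6 fell and 1 rose in PL-NAc and 7 fell and 1 rose in PL-BLA, and of 10 tested in PL-VTA 1 fell and 1 rose. Among all genes 21.7% (PL-NAc), 20.2% (PL-BLA) and 10.5% (PL-VTA) were lower. Of 11 Notch pathway genes 6 fell and 1 rose in PL-NAc and 3 fell and 2 rose in PL-BLA, and of 9 tested in PL-VTA 2 fell. The target gene Hes5 fell at -1.82 (SE 0.19), -2.20 (SE 0.17) and -1.97 (SE 0.31), while Hey1 rose at 0.51 (SE 0.08) and 0.64 (SE 0.09) in PL-NAc and PL-BLA and was -0.02 (SE 0.17) in PL-VTA, in the authors' deposited table. The target gene Hes1 rose in PL-BLA, where the authors' deposited table gives 0.49 (SE 0.17).

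Of 11 genes for transforming growth factor beta and BMP signalling 8 (PL-NAc), 7 (PL-BLA) and 3 (PL-VTA) fell, and 0 rose. The shares of all genes lower were 21.7%, 20.2% and 10.5% in that order. The receptor Tgfbr2 was -1.94 (SE 0.28), -1.55 (SE 0.28) and -1.41 (SE 0.40), and Bmp6, a ligand, fell at -1.40 (SE 0.30) and -1.26 (SE 0.30) in PL-NAc and PL-BLA, in the authors' deposited table. Of 9 further tight junction genes 5 fell in PL-NAc, 6 in PL-BLA and 3 of 8 tested in PL-VTA, and 0 rose. In the authors' deposited table the adhesion gene Jam2 fell at -2.10 (SE 0.17), -1.50 (SE 0.16) and -1.90 (SE 0.26). Among regulators and general components of contraction, which many cell types share, 3 of 12 tested fell and 4 rose in PL-NAc, 3 of 11 fell and 3 rose in PL-BLA, and 1 of 10 fell and 2 rose in PL-VTA. The cytoskeletal genes Actb and Myl6 rose in each projection, Actb at 0.35, 0.57 and 0.46 and Myl6 at 0.66, 0.60 and 0.55, in the authors' deposited table. Tpm1 rose in PL-NAc at 0.34 (SE 0.07) and PL-BLA at 0.31 (SE 0.08), and Mkl2, a cofactor of serum response factor, in PL-NAc at 0.24 (SE 0.08), in the authors' deposited table.

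Transcripts of other non-neuronal cells moved in the same direction, and their part in the vascular result was not tested. Shares of all genes lower were 21.7% (PL-NAc), 20.2% (PL-BLA) and 10.5% (PL-VTA). Of 9 genes of perivascular fibroblasts, which lie next to mural cells, 7 fell in PL-NAc, 5 in PL-BLA and 3 of 8 tested in PL-VTA, with medians of -1.35, -1.08 and -0.78. All 9 had reads, and their summed implied count was 757 in Input and 275 in IP in PL-NAc, 787 and 447 in PL-BLA, and 795 and 377 in PL-VTA. The 5 red blood cell genes fell in each projection, with medians of -3.50, -3.16 and -2.44, which correspond to 8.85%, 11.2% and 18.4% of Input. Of 12 astrocyte genes 12, 11 and 12 fell, with medians of -2.11, -1.39 and -1.44. Of 12 microglial genes 12, 12 and 11 fell, with medians of -2.60, -2.05 and -1.95, and all 12 oligodendrocyte genes fell in each projection, with medians of -2.94, -2.31 and -2.38. Glial signs were used to read the direction of the tables and are no finding here. The vascular medians were nearer to 0 than those of glia and red blood cells, but the lists differ in level, the median of mean counts being 31.6 for the 32 members and 846 for astrocyte genes in PL-NAc, so shrinkage differs between them. Excitatory neuron genes had medians of 0.62, 0.55 and 0.16, with 8 of 8, 7 of 8 and 2 of 8 higher, and 2 of 8 lower in PL-VTA. Interneuron genes had medians of -1.61, -1.65 and -1.55, with 7 of 8, 8 of 8 and 6 of 8 lower, and 1 of 8 higher in PL-NAc. A fall in the IP was therefore not limited to lists of non-neuronal cells. Over the 12 astrocyte genes the summed implied count was 40906 in Input and 13834 in IP in PL-NAc, over the 12 microglial genes 3828 and 844, and over the 8 excitatory neuron genes 61675 and 90145, against 4054 and 2748 for the 32 vascular members.

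**Figure D4:**
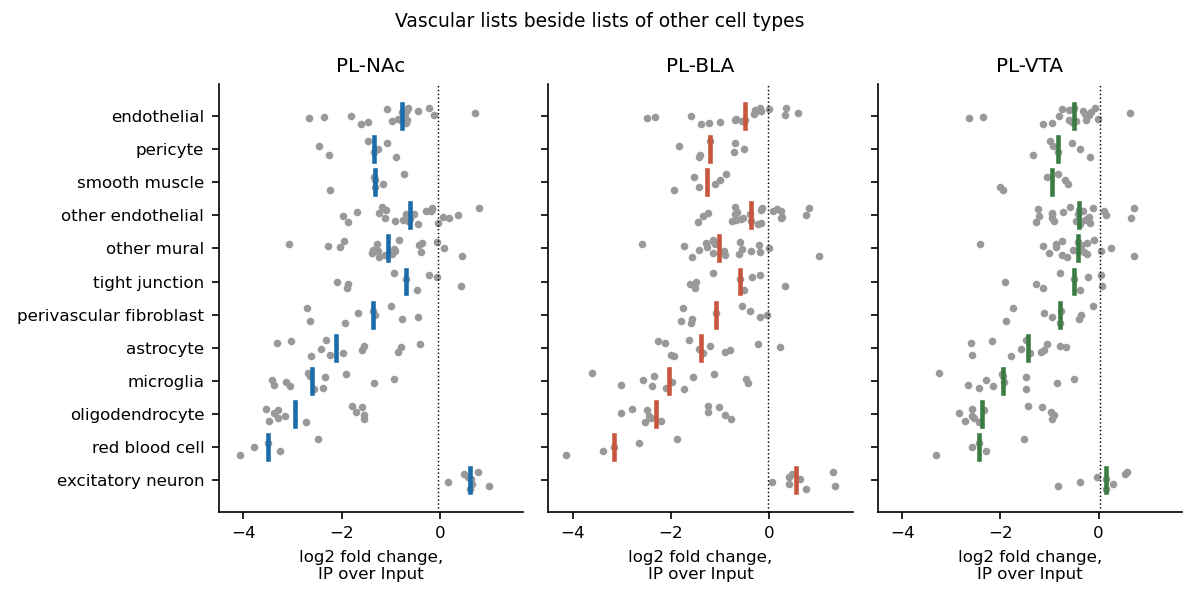
Log2 fold change of IP over Input (x axis) of single genes (grey points) in the vascular lists and in lists of other cell types (rows), with 1 panel for each projection. Coloured bars mark each list's median and the dotted line the median of all genes tested, and mural medians (pericyte -1.34 and smooth muscle -1.32 in PL-NAc) lie left of the endothelial median (-0.76).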

How the data were processed

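Polysome-bound (IP) and total (Input) PL RNA of 16 samples entered as the authors' 3 comparison tables. Per the submitters' processing notes, STAR 2.3, featureCounts and DESeq2 were used, with mm10 and GRCm38 as build names; how strand, filters and the model were set is not given in the sources used here. Each table's mean signal is, per the file headers, a mean of normalized counts by the authors. The authors also deposited the log2 fold change, its SE, a Wald score, a p-value and an adjusted p-value. Score, p and adjustment were recomputed and matched. Genes under a mean of 1.82 (PL-NAc), 2.39 (PL-BLA) or 8.58 (PL-VTA) carry no adjusted p. Depth per library is unknown, and rows with no symbol held 0.227% to 0.240% of the summed means.

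Implied counts, medians, 95% intervals (1.96 SE) and differences between projections were computed from these values in Python 3.11.15 with SciPy 1.17.1. The difference test was also run on simulated fold changes with normal noise of the deposited SE, which is the model the test assumes. Shrinkage was not simulated, so that run does not show how the test behaves on shrunken values. The projections share no sample. Positions, exonic lengths, exon overlaps and shared 50-base windows came from GENCODE M21 (GRCm38). The 32 members and the other lists were chosen with earlier results of these data known. Members called in at least 1 projection, differing between projections or lower in none were named, and from each other list the 2 called genes of smallest p and those called higher. Alternatives were a threshold of 0.01, adjustment over every gene or only those whose mean reached 50, centring, weighting and narrower lists. A result that the naming rule covers is not reported here.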

Additional observations from a re-analysis of the deposited data

Results flagged for a closer look

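The enrichment of 2 members differed between projections by a Wald z on the difference itself, adjusted over all genes tested in both tables. Among all genes, 1.55% passed for PL-NAc against PL-BLA, 3.36% for PL-NAc against PL-VTA and 4.61% for PL-BLA against PL-VTA. A count this small is therefore near the background, and no member passed for PL-NAc against PL-VTA. Cd34 differed by -0.56 between PL-NAc and PL-BLA, with log2 fold changes of -0.22 and 0.34. Rgs5 differed by -1.24 between PL-BLA and PL-VTA, with log2 fold changes of -1.42 and -0.18. PL-VTA rests on 2 libraries a side.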

How the results depend on the processing

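No paired analysis was possible because the tables hold no values per library, and for the same reason no replicate could be left out. Every endothelial and mural count of lower members stayed within 1.5 times its value under an adjusted p threshold of 0.01, without a filter on low means and after centring, which shifted fold changes by 0.06 in each projection. Testing only genes with a mean of at least 50 gave 4 lower endothelial members in PL-NAc and 2 in PL-BLA, and 6 lower mural members in PL-NAc. Fewer members were tested in this setting. The endothelial count in PL-NAc includes Cd34, which was newly called there (-0.22, adjusted p 0.0489 by the Wald test). The gap between endothelial and mural medians kept its sign under all 4 alternatives. It was 0.89, 1.43 and 0.68 in PL-NAc, PL-BLA and PL-VTA among members with a mean of at least 50. The gap between means weighted by precision was 1.13, 1.27 and 0.57. Slc2a1, Cd34 and Egfl7, called lower in no projection by the deposited adjusted p, stayed in the first setting. They had the smallest SE of the endothelial members in each projection, and so the largest weights in the second. Neither setting was rerun without them. At a threshold of 0.01 the difference of Cd34 between PL-NAc and PL-BLA no longer passed, which left 0 members there. Centring moved the difference of Ly6c1 between PL-NAc and PL-VTA from -0.01 (SE 0.54) to 0.02, a change of sign within its error that carries no information. Without a filter on low means 3 calls were lost, Pdgfrb and Cnn1 in PL-BLA and Cldn5 in PL-VTA (adjusted p 0.0528). Depth limits members with few reads, such as Kdr, Tek, Tie1, Abcb1a, Emcn, Abcc9 and Anpep, whose means were under 15.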
